A study of Mus musculus with 18 samples.

Results

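The genes described here are 40 genes of the interferon response and of antigen presentation by MHC class I, a list of interferon regulatory factors, antiviral effectors, interferon-inducible GTPases, Ifi200 and Ifitm family genes, a chemokine, and the genes that build and load MHC class I. Every probe set of the 3 chips whose annotation names one of them as its only gene was taken. This gave 39 genes of 15964 with a probe set of their own, by 68 of 36701 probe sets that are not controls: 53 on U74Av2, 9 on U74Bv2 and 6 on U74Cv2. Irf2 had no probe set of its own, and 5 probe sets that members share with other genes were left out. Of the measured members, 22 had 1 probe set and 17 had several, with at most 4. The name of 23 probe sets carries a suffix that marks a design outside the usual rules, in part with probes shared by several transcripts, and the signals of near-identical genes, such as H2-K1 and H2-D1 or the Ifi200 and Ifitm genes, cannot be fully told apart on these chips.

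The STAT3-MER group was the FVB/N embryonic stem (ES) cell line 743, which carries a transgene that fuses mouse STAT3 to a changed ligand-binding domain of the estrogen receptor, driven by a chicken beta-actin promoter, and which grew with 4-hydroxytamoxifen (OHT) and without LIF. The WT group was a line of FVB/N ES cells without the transgene, which grew with LIF. Both were set up on mitotically inactive mouse embryonic feeder fibroblasts of another mouse strain. RNA of 3 separately grown dishes of each group was amplified in 2 rounds and hybridized to the 3 chips. Transgene, line, OHT and LIF differ together between the groups and cannot be told apart, and each group is 1 line, so the spread is that between dishes. The question of the comparison was which genes differ between the transgenic cells kept by active STAT3-MER and WT cells kept by LIF.

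Interferons act through cell surface receptors and JAK kinases, and the signal reaches the interferon-stimulated response element (ISRE) in front of many target genes. The induced genes include proteins that recognise or block viral RNA, GTPases that attack parasite vacuoles, and the transporter and chaperones that load peptides onto MHC class I. ES cells are known for a weak interferon response and little MHC class I, whereas fibroblasts answer to interferon in full.

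The values are linear MAS5 signals, 1 per probe set and array, with a trimmed mean near 500.1 to 500.3 on every array and an array median that lay between 132 and 157 for U74Av2, between 246 and 269.8 for U74Bv2, and between 191 and 231 for U74Cv2. They come without detection calls, and the number of arrays limits their precision. The only probe set past the threshold over all 3 chips was one of Esr1, the estrogen receptor gene whose ligand-binding domain is part of the transgene, with 25850, 25570 and 31550 in the STAT3-MER dishes, against 40.3, 19.7 and 9.25 in the WT dishes (limma, adjusted p = 7.577e-06). Markers of the ES cells, all 10 listed genes, had a probe set on U74Av2, with a summed signal of 64010 to 72890 in the STAT3-MER dishes and 56560 to 84410 in the WT dishes, and 9 of them lay above the array median in all 6 dishes and 1 below it in all 6. Markers of feeder fibroblasts, 22 of 24 listed genes, had a probe set there too, with 17 above the array median in all 6 dishes and 3 below it in all 6. White blood cell markers summed to 898 to 1398 in the STAT3-MER dishes and 979 to 1366 in the WT dishes. Of these 9 genes, 6 lay below the array median in every dish and 2, Cd14 and Cd68, above it in every dish. Arrays of U74Av2 correlated at 0.952 to 0.961 within a group and at 0.948 to 0.975 between the groups, over probe sets and on log2(signal + 32).

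Members covered the whole range of signals. On U74Av2, which held 37 of the genes, the brightest probe set of 11 genes lay above the array median in all 6 dishes: B2m, H2-K1, H2-D1, Tapbp, Ifitm3, Irf1, Irf3, Irf9, Ly6e, Samhd1 and Trim25. Another 13 genes were above the median in some dishes only, among them Isg15, Usp18, Ifit3, Ifi35, Gbp2, Gbp3, Irgm1 and Tap1. The other 13 genes, such as Ifit1, Ifit2, Ifi47, Igtp, Mx1, Mx2, Rsad2, Sp100 and Cxcl10, stayed below it in every dish, where MAS5 signals are least certain.

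No member differed between the STAT3-MER and the WT cells by the test across all probe sets (limma on log2(signal + 32), Benjamini-Hochberg adjustment over 36701 probe sets). None of the 68 probe sets was higher and none lower at an adjusted p under 0.05, where 0.00272% of all probe sets were higher and 0.0% lower, and the smallest adjusted p of a member was 0.9996. At an unadjusted p under 0.05 there was likewise no member, against 1.88% of all probe sets higher and 1.57% lower, and the smallest member p was 0.1053, of Sp100 on U74Bv2 (limma, unadjusted). The median log2 difference, STAT3-MER over WT, was -0.02 over the members and 0.01 over all probe sets, with 33 members above 0 and 35 below. The criteria of the study's methods, which asked for group means at least 1.5-fold and 100 signal units apart with a p under 0.1 in the methods' t-test, were met by no member in either direction, where 1.1% of all probe sets met them as higher and 0.872% as lower, and the p alone was under 0.1 for 2 members, 2.94%, against a background of 5.47%. In simulated data each probe set kept its own spread, and changes were given to probe sets drawn from all, with dim ones raised first. The fit called 1 of 68 changed by a log2 of 1, 28 of 67 changed by 2 and 55 of 65 changed by 4. A difference of 1 on the log2 scale would thus mostly have been missed. Members varied more between dishes than all probe sets did, and many were dim, so the rates may be too high for them.

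By role, the medians of the log2 differences were -0.05 for the 16 probe sets of MHC class I and peptide loading, 0.12 for the 10 of the interferon regulatory factors, -0.11 for the 26 of the antiviral effectors and the ISG15 system, -0.17 for the 8 of the GTPases, 0.27 for the 4 of the Ifi200 family and -0.10 for the 3 of the Ifitm family. Cxcl10, a chemokine that draws T cells, had 1 probe set at 0.25. The GTPases ran between -0.81 and 0.53, and both ends belonged to Gbp2, on U74Av2 and on U74Cv2. Of its U74Cv2 probe set, with 217, 93.4 and 36.4 in the STAT3-MER dishes, against 116, 40.7 and 34.5 in the WT dishes, STAT3-MER replicate 1 was the highest dish and WT replicate 3 the lowest, whereas WT replicate 3 was the highest on U74Av2.

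**Figure D1:**
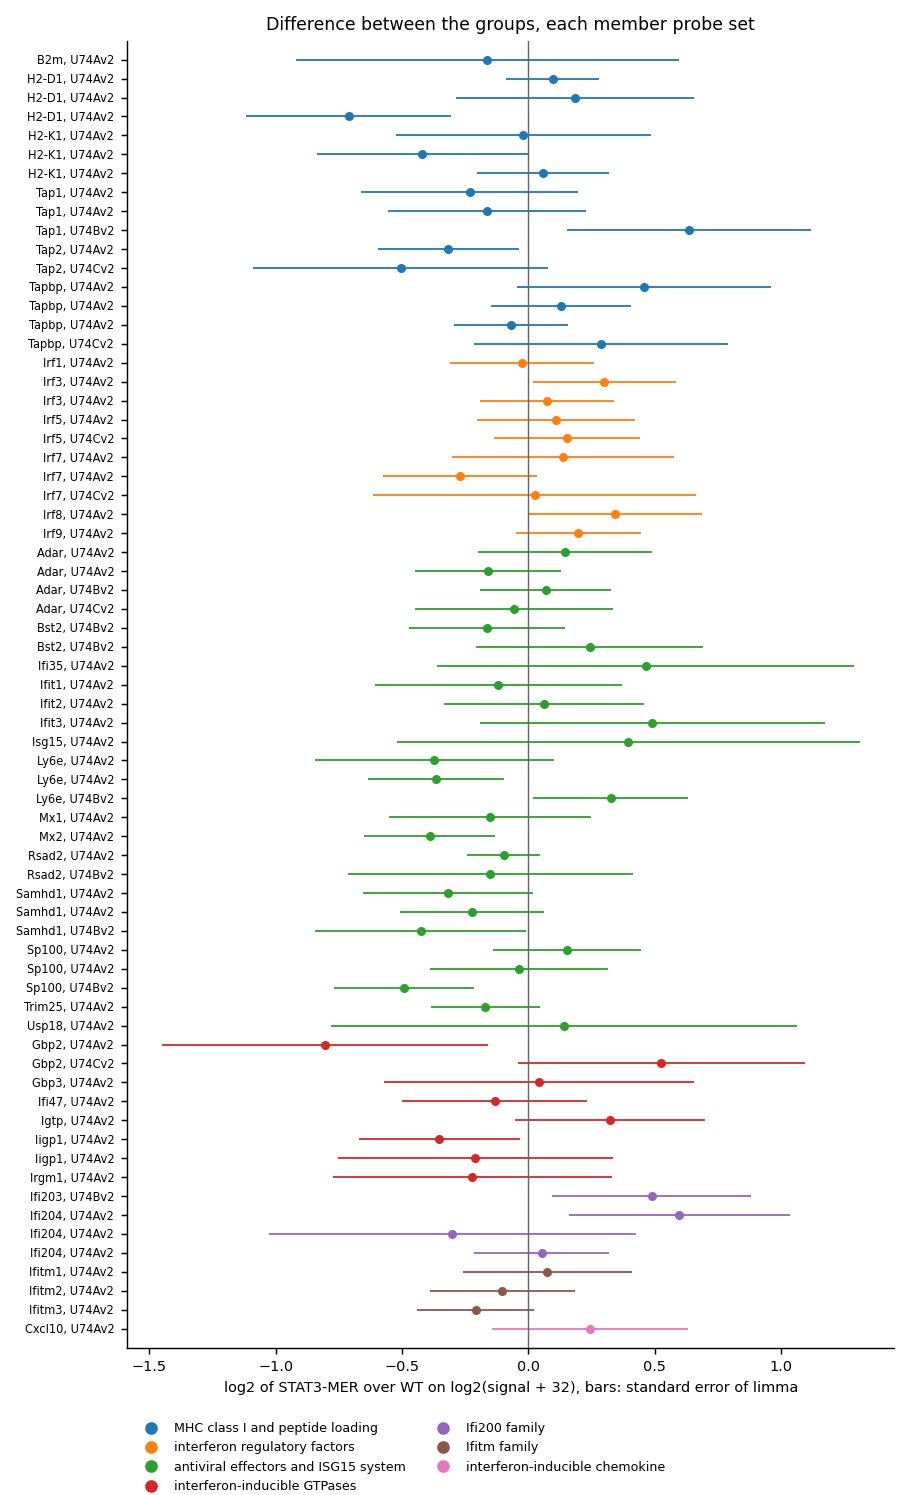
The log2 difference of STAT3-MER over WT on log2(signal + 32) is plotted for each of the 68 member probe sets, coloured by role, with bars for the standard error of limma. Values lie between -0.81 and 0.64, probe sets of one gene often fall on both sides of 0, and none passed the adjusted threshold.

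For 5 members the 3 dishes of one group all lay on one side of the other group. The STAT3-MER dishes were all higher for 1 member, 1.47%, against 4.5% of all probe sets, and all lower for 4 members, 5.88%, against 3.63%, so both shares were near the background. Ifi203, an Ifi200 family gene, read 259, 212 and 209.7 in the STAT3-MER dishes, against 157, 182 and 121 in the WT dishes on U74Bv2, a log2 difference of 0.49 (SE 0.39). Its groups did not overlap, with WT replicate 3 the lowest dish. Sp100, a component of nuclear PML bodies, read 16.7, 18.8 and 28.6 in the STAT3-MER dishes, against 35.3, 34.6 and 61.2 in the WT dishes, at -0.49 (SE 0.28), on U74Bv2. All of these signals are below the array median, and the brighter of its U74Av2 probe sets had overlapping groups and a difference of -0.04 (SE 0.35). Mx2, a dynamin-like GTPase that traps incoming viruses, read 57.8, 44 and 72.8 in the STAT3-MER dishes, against 90.8, 75.9 and 89.6 in the WT dishes, a difference of -0.39 (SE 0.26), again with every dish below the median. Tap2, a subunit of the peptide transporter, read 55, 81.5 and 81.5 in the STAT3-MER dishes, against 83.9, 124 and 87.7 in the WT dishes, where the highest STAT3-MER dish was close to the lowest WT dish. Its U74Cv2 probe set read 177, 784 and 995 in the STAT3-MER dishes, against 514, 1134 and 756 in the WT dishes, with overlapping groups. The dim probe set of Ly6e, a membrane protein of many immature cells, read 61.8, 59.4 and 62.7 in the STAT3-MER dishes, against 63.3, 107 and 98.3 in the WT dishes, with STAT3-MER replicate 3 and WT replicate 1 almost level.

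The other probe sets with the smallest p showed the same wide spread. Gbp2, a guanylate-binding protein, had the lowest log2 difference of all members, -0.81 (SE 0.65), from 29, 19.3 and 126 in the STAT3-MER dishes, against 66, 43.7 and 324 in the WT dishes. The high WT mean came from 1 dish, replicate 3, and without it the difference was -0.12. Tap1 on U74Bv2 had the highest, 0.64 (SE 0.48), from 173, 139.8 and 186 in the STAT3-MER dishes, against 145, 38.1 and 133 in the WT dishes. Here WT replicate 2 alone was low, the remaining dishes overlapped, and the brighter Tap1 probe set of U74Av2 was at -0.23 (SE 0.43). A dim H2-D1 probe set read 14.2, 79.3 and 60.7 in the STAT3-MER dishes, against 109, 57.8 and 134 in the WT dishes. STAT3-MER replicate 1 was lowest and WT replicate 3 highest, and the 4 dishes between them overlapped. Ifi204, a DNA-binding protein of the Ifi200 family, read 88.2, 45 and 106 in the STAT3-MER dishes, against 106, 21.4 and 18.3 in the WT dishes on a dim probe set, with WT replicate 1 as high as STAT3-MER replicate 3. Iigp1, a GTPase of the same class as Irgm1, read 28.8, 16.6 and 70.8 in the STAT3-MER dishes, against 50.1, 71.5 and 42.2 in the WT dishes on its dimmer probe set and overlapped. Irf3, the factor that starts interferon transcription after virus sensing, read 63.3, 69.4 and 88.8 in the STAT3-MER dishes, against 58.1, 74.5 and 33.2 in the WT dishes on its dimmer probe set, and Ly6e on U74Bv2 read 507, 625 and 497 in the STAT3-MER dishes, against 304, 512 and 489 in the WT dishes. In both the lowest dish was a WT dish, replicate 3 for Irf3 and replicate 1 for Ly6e, and the other dishes overlapped.

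The members differed far more between the dishes of a group than between the groups. On U74Av2 the ratio of the highest to the lowest of the 6 dishes had a median of 3.84 over the 53 member probe sets and of 2.40 over all 12422 probe sets, and among probe sets with a mean signal over 100 it was 2.83 for 28 members and 1.88 for 7114 probe sets. The median SD of log2(signal + 32) between the dishes of a group was 0.506 for members in STAT3-MER and 0.458 in WT cells, against 0.291 and 0.299 for all probe sets. The dishes that stood high or low followed a few recurring combinations.

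In 20 of the 53 member probe sets, 37.7%, the highest dish was replicate 3 in both groups, against 10.4% of all probe sets of U74Av2. In 18 of them, from 17 genes, both dishes numbered 3 lay above the other 4, which held for 34.0% of members and 6.82% of all probe sets. This combination and the following ones were picked out after the values had been seen, so they are descriptions without a test. The labels do not say that a number marks a shared day or batch, and 1 STAT3-MER array of U74Av2 has no number in its label and is called replicate 2 because 1 and 3 were taken.

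**Figure D2:**
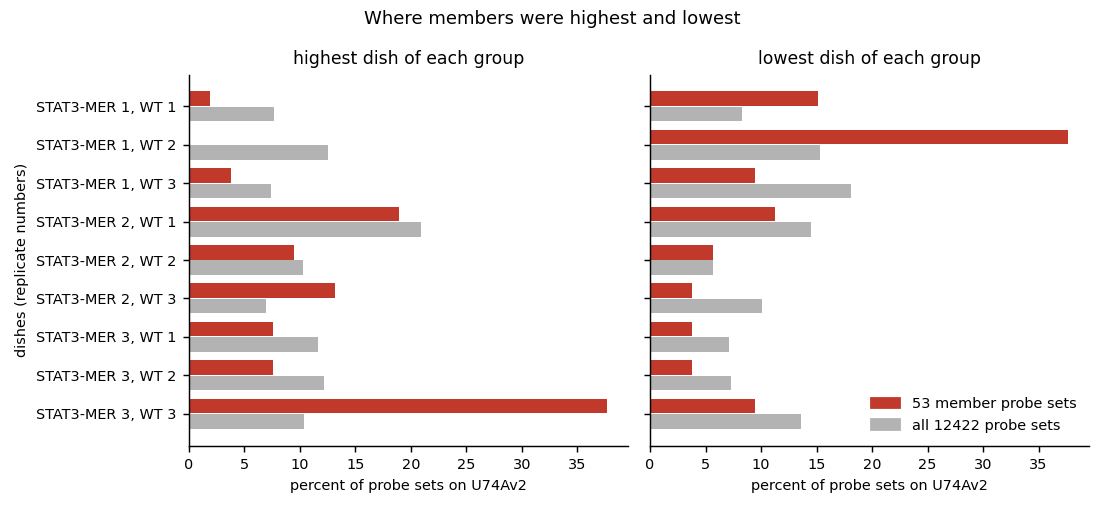
For each combination of a STAT3-MER and a WT dish, the bars give the percent of probe sets of U74Av2 whose highest (left panel) or lowest (right panel) dish in each group was that one, for the 53 member probe sets in red and all 12422 in grey. Members were highest in both dishes numbered 3 in 37.7%, against 10.4% of all, and lowest in STAT3-MER replicate 1 with WT replicate 2 in 37.7%, against 15.3% of all.

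The combination was densest among the interferon-inducible GTPases, where 6 of 7 probe sets on U74Av2 showed it, followed by 2 of 3 of the Ifitm family, 6 of 18 of the antiviral effectors, 1 of 3 of the Ifi200 family, 2 of 13 of MHC class I and peptide loading and 1 of 8 of the interferon regulatory factors. Isg15, a ubiquitin-like modifier, read 18.3, 144 and 519.5 in the STAT3-MER dishes, against 69.1, 27.8 and 323 in the WT dishes. Usp18, the protease that takes ISG15 off its targets and damps the receptor, read 5.61, 41.1 and 326 in the STAT3-MER dishes, against 16.6, 21.1 and 253 in the WT dishes. In both genes STAT3-MER replicate 3 was the highest dish, WT replicate 3 the second, and STAT3-MER replicate 1 the lowest. The groups overlapped fully, and the differences were 0.39 (SE 0.92) for Isg15 and 0.14 (SE 0.92) for Usp18.

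The Ifit genes, whose products bind foreign RNA, ran the same way. Ifit1 read 6.13, 22.8 and 91.9 in the STAT3-MER dishes, against 52, 7.59 and 67.6 in the WT dishes, with WT replicate 1 near the top pair. Ifit2 read 5.7, 7.69 and 59.5 in the STAT3-MER dishes, against 10.1, 5.02 and 45.4 in the WT dishes, all below the array median. Ifit3 read 3.85, 111 and 163 in the STAT3-MER dishes, against 13.7, 21.1 and 117 in the WT dishes, and STAT3-MER replicate 2 was close to WT replicate 3. In all 3 genes the lowest dish was STAT3-MER replicate 1 or WT replicate 2. Ifi35, an interferon-induced leucine zipper protein, read 30.3, 181 and 326 in the STAT3-MER dishes, against 41.5, 31.7 and 355 in the WT dishes, so that STAT3-MER replicate 2 stood between the pair numbered 3 and 3 low dishes.

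Among the GTPases, which guard cells against intracellular parasites, Irgm1 read 86.7, 78.3 and 179.7 in the STAT3-MER dishes, against 47.7, 120.2 and 331 in the WT dishes and Gbp3 read 99.8, 92.5 and 301 in the STAT3-MER dishes, against 56.3, 108 and 375 in the WT dishes. Ifi47 read 7.83, 7.21 and 50 in the STAT3-MER dishes, against 10.2, 14.6 and 54 in the WT dishes and Igtp read 54.1, 93.7 and 126 in the STAT3-MER dishes, against 67.6, 31.6 and 106 in the WT dishes. Here the dishes numbered 3 stood alone, except in Igtp, where STAT3-MER replicate 2 came close to WT replicate 3. The brighter probe set of Iigp1 read 9.07, 20.7 and 122 in the STAT3-MER dishes, against 48.7, 16.2 and 100.4 in the WT dishes, also with both dishes numbered 3 on top. Gbp2, given above, did so too.

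Irf7, the factor that amplifies interferon production, showed the combination on both U74Av2 and U74Cv2. On U74Av2 its probe set without a suffix read 22.9, 75.4 and 127 in the STAT3-MER dishes, against 55.7, 31.5 and 95 in the WT dishes. On U74Cv2 it read 898, 2695 and 5119 in the STAT3-MER dishes, against 1188, 2057 and 4844 in the WT dishes, a difference of 0.02 (SE 0.64), and every dish was above the array median. A further U74Av2 probe set of Irf7 read 100.4, 149.8 and 114 in the STAT3-MER dishes, against 211, 118 and 137 in the WT dishes, with WT replicate 1 highest. Probe sets of this gene thus disagree, and this one, the brighter on U74Av2, stands for Irf7 in the correlations. Ifitm3, which keeps viruses from entering through endosomes, read 3445, 3936 and 5271 in the STAT3-MER dishes, against 4241, 4305 and 6070 in the WT dishes, a difference of -0.21 (SE 0.23), which was -0.042 without WT replicate 3. Its highest dish was 1.76 times its lowest, where that ratio was 28.5 for Isg15 and 58.3 for Usp18.

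**Figure D3:**
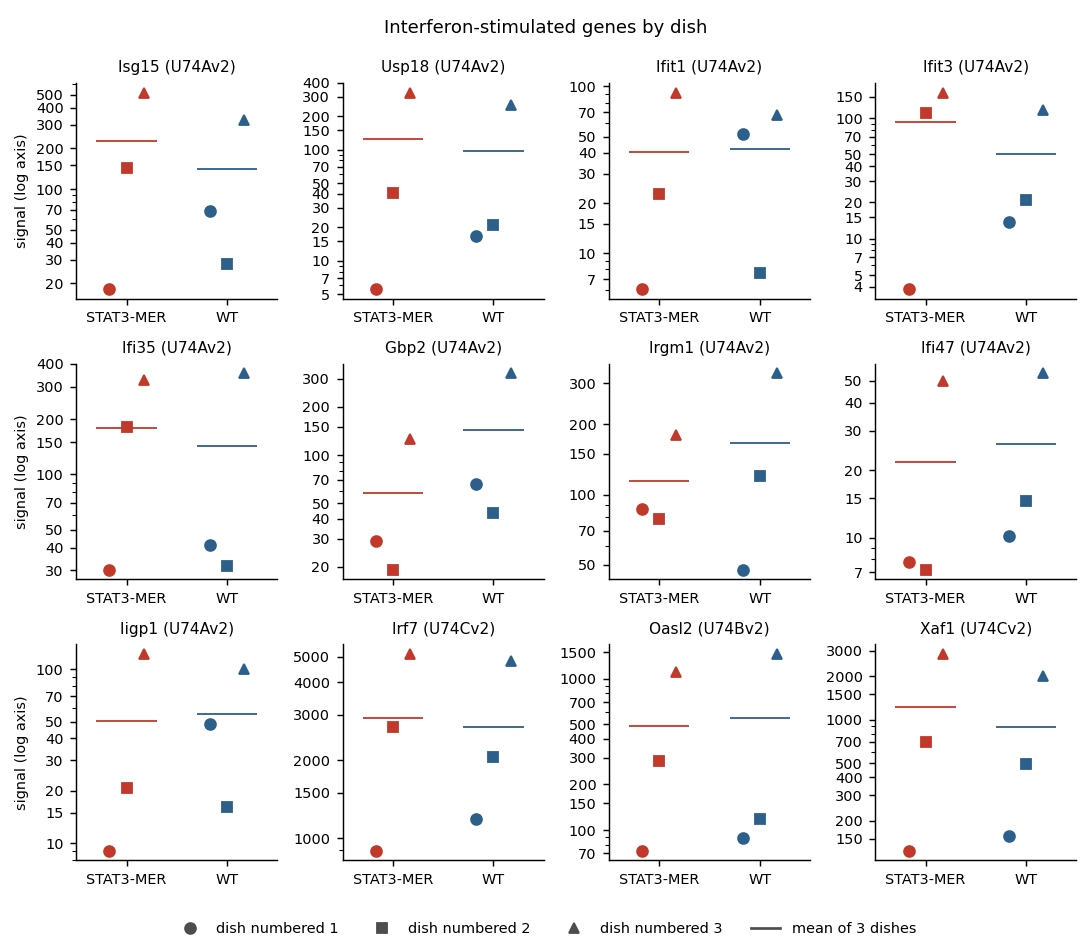
The signal (log axis) of 9 member probe sets on U74Av2, of Irf7 on U74Cv2, and of the interferon-stimulated genes Oasl2 on U74Bv2 and Xaf1 on U74Cv2 is plotted for each dish, with the marker showing its number and a line at the mean of 3 dishes. The panels were picked from probe sets in which both dishes numbered 3 (triangles) lie above the other 4, so all of them show this. On U74Av2 18 of 53 member probe sets had this combination, and the brighter Irf7 probe set of that chip did not.

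Some members ran the other way or not at all. Mx1, a nuclear relative of Mx2, read 29.2, 47.9 and 8.55 in the STAT3-MER dishes, against 35.9, 73.5 and 5.92 in the WT dishes, lowest in both dishes numbered 3, and Irf3 on its brighter probe set read 280.1, 250.1 and 206 in the STAT3-MER dishes, against 276, 247 and 178 in the WT dishes, also lowest there. Rsad2, which makes an antiviral nucleotide, read 11.8, 10.7 and 18.9 in the STAT3-MER dishes, against 19.3, 15.2 and 16.3 in the WT dishes on U74Av2, below the median throughout, and Cxcl10 read 75.5, 21.3 and 63.1 in the STAT3-MER dishes, against 10.2, 54.8 and 57.3 in the WT dishes. Neither had both dishes numbered 3 on top. Irf9, a DNA-binding factor that acts at the ISRE, read 391, 710.0 and 586 in the STAT3-MER dishes, against 459, 466 and 493 in the WT dishes, and Irf1, a factor downstream of interferon gamma, read 415, 407 and 298 in the STAT3-MER dishes, against 373, 269 and 528 in the WT dishes. Both stayed within 1.97 times between the lowest and the highest dish. Trim25, a ubiquitin ligase of the RNA sensor RIG-I, read 2210, 2467 and 1952 in the STAT3-MER dishes, against 3267, 2223 and 2098 in the WT dishes, a difference of -0.17 (SE 0.22), with WT replicate 1 highest. Bst2, which tethers budding viruses to the membrane, read 2099, 1872 and 3009 in the STAT3-MER dishes, against 1750, 3860 and 2476 in the WT dishes on U74Bv2, a difference of -0.17 (SE 0.31), with WT replicate 2 highest. Samhd1, which degrades nucleotides, stayed between 225 and 569.5 on its brighter probe set. Irf5, Irf8 and Ifitm2 also lacked the combination. The RNA editor Adar had it on U74Bv2 only, within a narrow range, with 583, 636 and 833 in the STAT3-MER dishes, against 568, 647 and 725 in the WT dishes.

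Genes that are not members but belong to lists of the same pathway also showed both dishes numbered 3 on top, on the chips that hold few members. Over the lists of receptors, interferons, sensors, other interferon-stimulated genes and chaperones, 7 of 48 probe sets on U74Av2 did so (14.6%, against 6.82% of all), 5 of 27 on U74Bv2 (18.5%, against 6.25%) and 5 of 19 on U74Cv2 (26.3%, against 5.82%). Members alone had 1 of 9 on U74Bv2 and 1 of 6 on U74Cv2. Xaf1, a pro-apoptotic interferon target, read 124, 699.5 and 2835 in the STAT3-MER dishes, against 156, 492 and 2012 in the WT dishes on U74Cv2. Oasl2, an oligoadenylate synthetase-like gene, read 73.2, 287 and 1111 in the STAT3-MER dishes, against 88.7, 118 and 1452 in the WT dishes on U74Bv2. Parp9 read 1251, 837 and 2086 in the STAT3-MER dishes, against 1022, 628 and 2115 in the WT dishes and its partner Dtx3l, a ubiquitin ligase, 778, 549 and 1502 in the STAT3-MER dishes, against 478, 513 and 1306 in the WT dishes, both on U74Bv2. In each of these 4 genes the dishes numbered 3 were the 2 highest, on chips hybridized apart from U74Av2. The genes of this paragraph were chosen for their values. Of the interferons themselves, Ifnb1 read 62.1, 70.4 and 17.3 in the STAT3-MER dishes, against 42.7, 78.8 and 14.2 in the WT dishes and Ifng 1.48, 4.33 and 31.2 in the STAT3-MER dishes, against 6.09, 4.61 and 5.29 in the WT dishes, all below the array median. Ifnb1 was lowest in both dishes numbered 3. Ifna5, on a probe set whose suffix marks probes shared within a family, was above the array median in all dishes but WT replicate 3, with 238, 184 and 167 in the STAT3-MER dishes, against 256, 260.2 and 120.0 in the WT dishes.

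Because many of the members are known ISRE targets, the 250 bases in front of the annotated starts were searched in RefSeq promoters of GRCm38.p6. The search was for the core GAAANNGAAA on either strand, where N is any base. It was present in 2.98% of 32851 promoters, that is in front of 3.46% of 27025 genes, and in front of 13 of the 32 measured members with a promoter entry (40.6%). Of the 12 such genes with STAT3-MER replicate 1 and WT replicate 2 below the other 4 dishes, a combination described below, 4 had it (33.3%). Of the 14 such genes with both dishes numbered 3 on top, 7 had it (50.0%): Isg15, Ifit1, Ifit3, Gbp2, Gbp3, Igtp and Irgm1. Isg15, Ifit1 and Igtp are in both sets. The longer GAAANNGAAAC, which contains the core, was in 0.685% of promoters and in 8 members, 6 of them among those 7. Another motif, TTCNNNGAA, which reads the same on both strands, was in 7.02% of promoters and in 6 members, Bst2, Ifit2, Igtp, Irf1, Irf8 and Samhd1. A match is only a run of letters in this window. Ifi204, Iigp1, Ly6e, Mx1, Mx2, Tap2 and Usp18 had no entry. The promoters of 5 genes that were highest in both dishes numbered 3 are shown, with that of B2m, which was not but has the core too. They run from 250 bases to 1 base before the start, 5′ to 3′ on the strand of the gene. The core is in capitals on whichever strand it lies.
Isg15 (chr4:156200819-156201068, minus strand): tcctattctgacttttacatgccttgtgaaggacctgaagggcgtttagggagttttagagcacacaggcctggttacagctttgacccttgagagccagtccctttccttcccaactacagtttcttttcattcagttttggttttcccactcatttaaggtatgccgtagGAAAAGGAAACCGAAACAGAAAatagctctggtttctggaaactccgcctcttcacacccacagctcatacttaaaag
Ifit1 (chr19:34640639-34640888, plus strand): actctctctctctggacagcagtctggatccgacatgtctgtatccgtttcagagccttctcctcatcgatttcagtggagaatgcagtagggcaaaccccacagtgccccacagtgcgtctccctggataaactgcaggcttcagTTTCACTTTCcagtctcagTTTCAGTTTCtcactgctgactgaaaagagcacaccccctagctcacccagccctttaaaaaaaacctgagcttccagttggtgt
Ifit3 (chr19:34583279-34583528, plus strand): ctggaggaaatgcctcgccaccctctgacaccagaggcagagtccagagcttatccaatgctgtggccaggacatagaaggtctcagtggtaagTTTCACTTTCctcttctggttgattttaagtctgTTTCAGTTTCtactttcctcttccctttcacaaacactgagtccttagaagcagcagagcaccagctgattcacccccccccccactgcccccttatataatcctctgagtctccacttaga
Gbp2 (chr3:142620413-142620662, plus strand): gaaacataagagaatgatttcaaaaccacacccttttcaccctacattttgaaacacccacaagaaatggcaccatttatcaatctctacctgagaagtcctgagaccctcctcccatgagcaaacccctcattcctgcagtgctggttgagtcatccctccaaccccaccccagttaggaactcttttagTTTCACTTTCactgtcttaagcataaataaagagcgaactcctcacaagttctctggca
Igtp (chr11:58199306-58199555, plus strand): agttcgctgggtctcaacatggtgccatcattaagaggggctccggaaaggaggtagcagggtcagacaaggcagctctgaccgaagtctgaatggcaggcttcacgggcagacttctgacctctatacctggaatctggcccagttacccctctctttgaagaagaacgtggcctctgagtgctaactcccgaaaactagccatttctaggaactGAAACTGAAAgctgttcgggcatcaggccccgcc
B2m (chr2:122147437-122147686, plus strand): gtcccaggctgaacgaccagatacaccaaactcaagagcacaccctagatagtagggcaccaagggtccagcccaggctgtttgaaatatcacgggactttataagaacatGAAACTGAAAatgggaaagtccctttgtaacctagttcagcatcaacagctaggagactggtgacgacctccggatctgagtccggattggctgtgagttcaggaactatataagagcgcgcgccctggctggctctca
Isg15 held 3 overlapping matches, the first starting 78 bases before the start of the gene, Ifit1 and Ifit3 held 2 each, and the others 1, which began 59 bases before the start in Gbp2, 34 in Igtp and 139 in B2m.

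The MHC class I genes followed another combination of dishes. In 19 of the 53 member probe sets of U74Av2, from 15 genes and 35.8%, STAT3-MER replicate 1 and WT replicate 2 both lay below the other 4 dishes, against 11.0% of all probe sets, and 7 of the 13 probe sets of MHC class I and peptide loading did so. B2m, the invariant light chain of MHC class I, read 689.7, 4577 and 2866 in the STAT3-MER dishes, against 3516, 888 and 4113 in the WT dishes, a difference of -0.16 (SE 0.76). The heavy chain gene H2-K1 read 857, 2842 and 2329 in the STAT3-MER dishes, against 1756, 1076 and 3143 in the WT dishes, at -0.02 (SE 0.50). H2-D1, a second heavy chain, read 599, 1727 and 2021 in the STAT3-MER dishes, against 1141, 731 and 1704 in the WT dishes, at 0.18 (SE 0.47). In all 3 genes the 2 low dishes belonged to different groups, and the groups overlapped. Tap1, a subunit of the transporter that brings peptides to the endoplasmic reticulum, read 129, 406 and 305 in the STAT3-MER dishes, against 400.4, 189 and 372 in the WT dishes. Outside that role, Ly6e on its bright probe set read 2527, 8621 and 5106 in the STAT3-MER dishes, against 9708, 3855 and 6491 in the WT dishes, a difference of -0.37 (SE 0.47). Again STAT3-MER replicate 1 and WT replicate 2 were the 2 lowest. Tapbp, the bridge between the transporter and MHC class I, moved less, with 308, 407 and 454 in the STAT3-MER dishes, against 376, 408 and 437 in the WT dishes, a difference of -0.07 (SE 0.23), and WT replicate 2 was not low there. Tap2 did not follow B2m on U74Av2, since WT replicate 2 was its highest dish there, but all its signals on that chip were below the array median. Its bright probe set on U74Cv2 was lowest in STAT3-MER replicate 1 and WT replicate 1.

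The markers of feeder fibroblasts moved with these genes. Their summed signal on U74Av2, over the brightest probe set of each of 22 genes, was 14060, 62110 and 49450 in the STAT3-MER dishes, against 55750, 24500 and 61010 in the WT dishes, so it was lowest in the same 2 dishes. Of their 33 probe sets there, 20 had those 2 dishes below the other 4 (60.6%), and 9 had both dishes numbered 3 on top (27.3%). The collagen gene Col1a2 read 1978, 12560 and 8411 in the STAT3-MER dishes, against 9561, 4149 and 9352 in the WT dishes. The summed signal of the ES cell markers was lowest in WT replicate 3 and highest in WT replicate 1, where Dppa5a gave 43340 of 84410. Of their 13 probe sets, 1 had the 2 dishes below the other 4 and none had both dishes numbered 3 on top. The list was mixed by the brightest probe set of each gene on U74Av2. Within their groups Utf1, Zfp42, Tdgf1 and Esrrb were highest in STAT3-MER replicate 1 and WT replicate 2. Esrrb was below the array median there in every dish, and its bright U74Cv2 probe set was highest in STAT3-MER replicate 3 and WT replicate 2. Sox2, Nanog, Fgf4 and Klf4 were highest in STAT3-MER replicate 2 and WT replicate 1. Between the groups the 41 fibroblast probe sets of the 3 chips had a median log2 difference of -0.26, with 38 below 0. Over all 36701 probe sets 17897 were below 0. None of the 41 passed the threshold, where 0.0% of all probe sets were called lower. The 41 probe sets come from 22 genes and share the same dishes, so their signs are not independent. Of the summed signals on U74Av2, only that of STAT3-MER replicate 1, 14060, lay below the WT range of 24500 to 61010. Those of the other STAT3-MER dishes, 62110 and 49450, lay above it and within it. How far the median rests on STAT3-MER replicate 1 was not tested. Whether the share of feeder cells in a dish has a part in the signals of the members was not tested, and more cells of a type cannot be told apart from more RNA per cell in such samples. The same numbers lay below the other 4 in 2 of 3 fibroblast probe sets on U74Bv2 and in 0 of 5 on U74Cv2. The brightest fibroblast probe sets there were lowest in STAT3-MER replicate 1 and WT replicate 1 instead: Prrx1 on U74Bv2, and Bgn and Col5a1 on U74Cv2. Bgn read 3285, 21990 and 22650 in the STAT3-MER dishes, against 9220, 18450 and 30940 in the WT dishes. On both chips no member had STAT3-MER replicate 1 and WT replicate 2 below the other 4, against 4.88% and 4.65% of all probe sets. Instead, STAT3-MER replicate 1 and WT replicate 1 were the 2 lowest for Irf7, Tap2 and Tapbp on U74Cv2 and Adar on U74Bv2. Tapbp was below the array median there in every dish. These genes were picked after their values had been seen, and the share over all probe sets was not counted. However, dish numbers 1 and 2 may not name the same dishes on those chips as on U74Av2. Without STAT3-MER replicate 1 and WT replicate 2, U74Av2 also gave no called member, and the median log2 difference was 0.08. Without both dishes numbered 3, no member of the 3 chips was called and the median was -0.01.

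**Figure D4:**
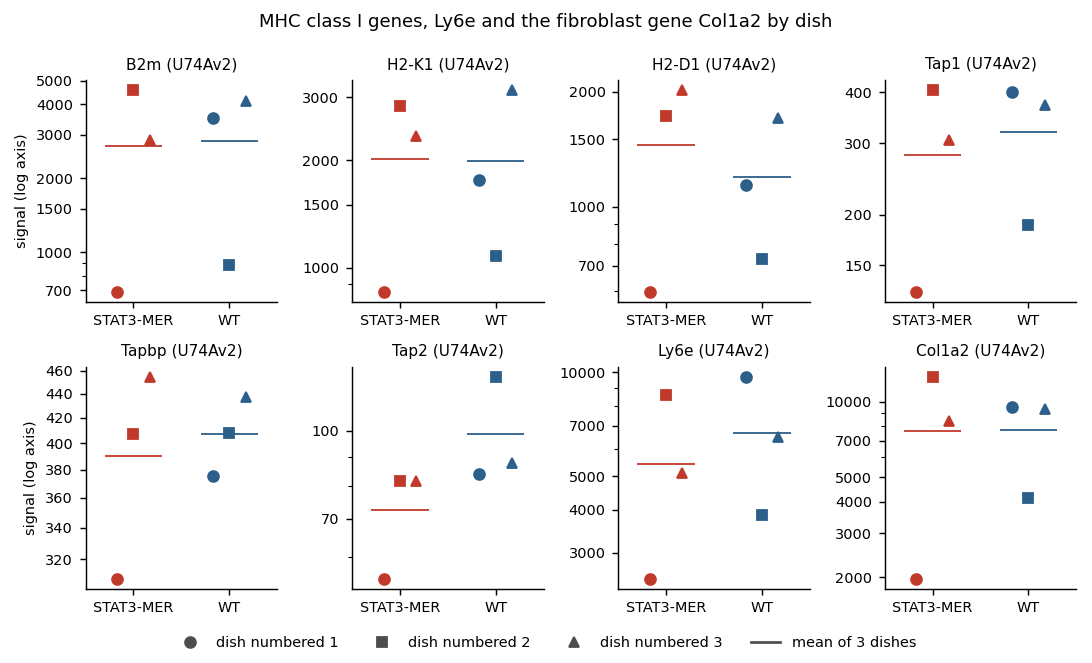
The signal (log axis) of 6 genes of MHC class I and peptide loading, of Ly6e and of the collagen gene Col1a2 on U74Av2 is plotted for each dish, with the marker showing its number and a line at the mean of 3 dishes. In B2m, H2-K1, H2-D1, Tap1, Ly6e and Col1a2, STAT3-MER replicate 1 (red circle) and WT replicate 2 (blue square) lie below the other 4 dishes, while Tapbp and Tap2 differ.

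Of the 53 probe sets, 29 from 24 genes showed at least 1 of the 2 combinations and 8 showed both: Isg15, Ifit1, Ifit2, Ifi35, Irf7, Igtp, Iigp1 and Ifi204. Ifi204 on its bright probe set read 55.9, 375 and 509.7 in the STAT3-MER dishes, against 207, 179 and 686 in the WT dishes, which puts both dishes numbered 3 on top and STAT3-MER replicate 1 and WT replicate 2 at the bottom.

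Covariation was measured as the correlation of log2(signal + 32) over the 6 dishes of U74Av2. The median pairwise Pearson's r was 0.32 over the brightest probe sets of the 37 genes and 0.02 over all probe sets, and it was 0.83 among the GTPases, 0.75 within MHC class I and peptide loading, 0.52 in the Ifitm family, 0.30 among the antiviral effectors and -0.01 among the interferon regulatory factors. Of 22 pairs tested, 7 had an adjusted p under 0.05 by Pearson's r and none by Spearman's rho (two-sided exact permutation tests over 6 dishes, Benjamini-Hochberg over the 22 pairs), where 12 had an unadjusted p under 0.05 by Pearson's r. B2m and Tap1 had r = 0.98 (exact permutation p = 0.004167, adjusted 0.03056) and rho = 0.94 (exact p = 0.01667, adjusted 0.06111). Without STAT3-MER replicate 1 and WT replicate 2, the dishes farthest from the median of B2m, r was 0.81. B2m and H2-K1 had r = 0.95 (exact permutation p = 0.0125, adjusted 0.03929) and rho = 0.89 (exact p = 0.03333, adjusted 0.08148), and 0.56 without those dishes. B2m and Col1a2 had r = 0.96 (exact permutation p = 0.002778, adjusted 0.03056) and rho = 0.94 (exact p = 0.01667, adjusted 0.06111), and 0.84 without them. B2m and H2-D1 had r = 0.90 (exact permutation p = 0.03194, adjusted 0.07028) and rho = 0.66 (exact p = 0.175, adjusted 0.275), and -0.13 without those dishes, so this relation rests on them.

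In the interferon-stimulated set, Isg15 and Usp18 had r = 0.95 (exact permutation p = 0.004167, adjusted 0.03056) and rho = 0.94 (exact p = 0.01667, adjusted 0.06111), with r = 0.86 once both dishes numbered 3 were left out. Isg15 and Ifit3 had r = 0.93 (exact permutation p = 0.0125, adjusted 0.03929) and rho = 0.94 (exact p = 0.01667, adjusted 0.06111), with 0.87 without them. Isg15 and Ifit2 had r = 0.92 (exact permutation p = 0.006944, adjusted 0.03667) and rho = 0.89 (exact p = 0.03333, adjusted 0.08148), with 0.64 without them. Gbp2 and Ifi47 had r = 0.92 (exact permutation p = 0.008333, adjusted 0.03667) and rho = 0.94 (exact p = 0.01667, adjusted 0.06111), with 0.59 without them. For Gbp2 with Gbp3 and with Irgm1, r was 0.83 in both pairs (exact permutation p = 0.04167 and 0.03889, adjusted 0.07639 each), rho was 0.66 in both (exact p = 0.175, adjusted 0.275), and r turned to -0.67 and -0.42 without both dishes numbered 3, so these 2 relations rest on them. Isg15 and Col1a2 had r = 0.69 (exact permutation p = 0.1333, adjusted 0.2095) and rho = 0.49 (exact p = 0.3556, adjusted 0.4889), with 0.94 without both dishes numbered 3. The 6 dishes mix both groups, and all pairs share these arrays, and 3 dishes are too few for r within a group.

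**Figure D5:**
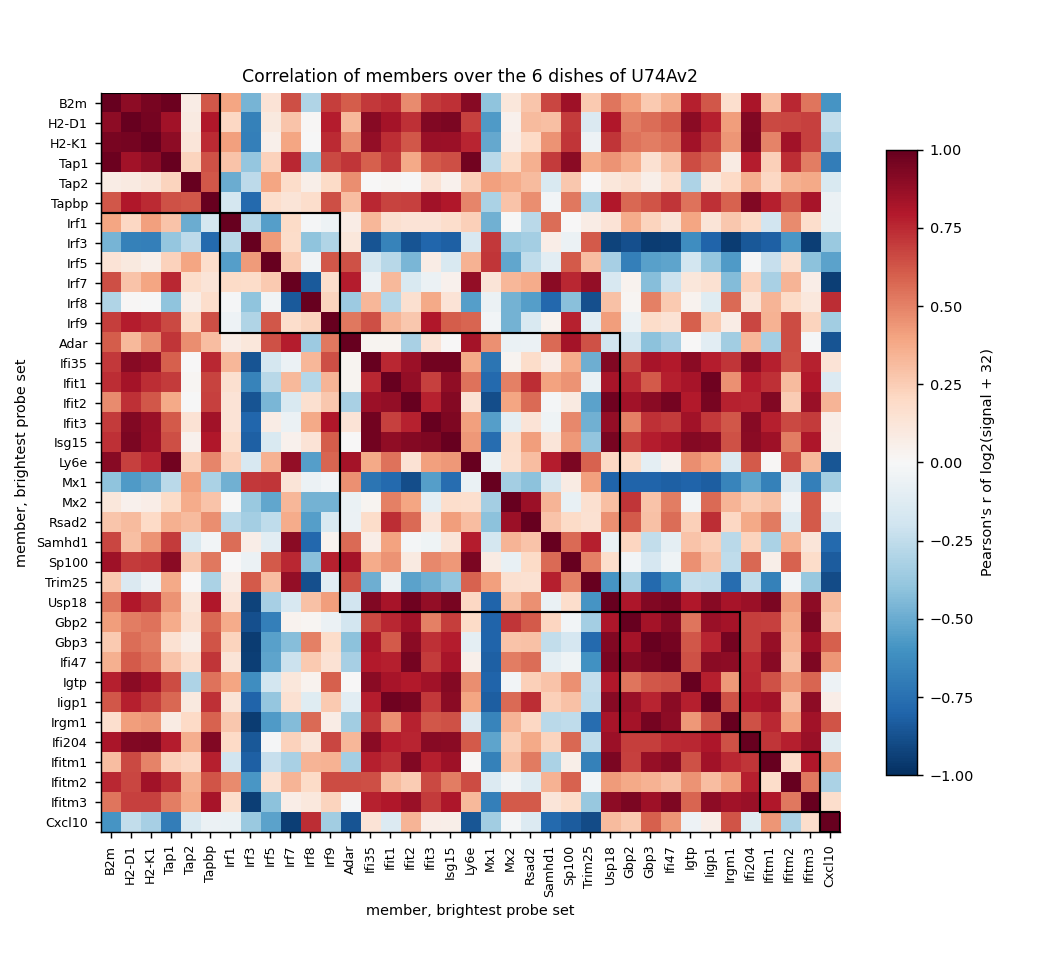
Pearson's r of log2(signal + 32) over the 6 dishes of U74Av2 is shown for each pair of the 37 members measured there, by the brightest probe set of each gene and ordered by role, with black squares around the roles. The squares of the GTPases and of MHC class I hold mostly high values, with medians of 0.83 and 0.75, while that of the interferon regulatory factors, with a median of -0.01, does not.

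Of the rest of the pathway, none of 94 probe sets of 61 further genes was called in either direction, where 0.00272% of all probe sets were called higher and 0.0% lower (limma, adjusted p under 0.05), and their median log2 difference was -0.09. For the receptors and their JAK-STAT chain the median was -0.11 over 16 probe sets, with Ifngr2, a chain of the interferon gamma receptor, at the smallest p: it read 16.7, 29.7 and 21.1 in the STAT3-MER dishes, against 73.2, 48.6 and 18.2 in the WT dishes. The 8 probe sets of the interferons had a median of 0.03, with Ifna4 at 21.6, 72.4 and 99.8 in the STAT3-MER dishes, against 22.5, 26.7 and 17.7 in the WT dishes. For the sensors of foreign nucleic acid the median was 0.10 over 19 probe sets, led by Mavs, the mitochondrial adaptor of RNA sensing, at 364, 342 and 344 in the STAT3-MER dishes, against 225, 155 and 77.7 in the WT dishes (unadjusted p = 0.03441 and adjusted p = 0.9996 by limma). The 46 probe sets of other interferon-stimulated genes had a median of -0.14, led by Trim30a at 3.91, 8.79 and 20.2 in the STAT3-MER dishes, against 25.2, 40.1 and 23.4 in the WT dishes (unadjusted p = 0.02901 and adjusted p = 0.9996 by limma). The 7 of the peptide loading chaperones had a median of 0.12, led by calreticulin, Calr, at 34.5, 25.8 and 29.3 in the STAT3-MER dishes, against 39.4, 5.75 and 2.36 in the WT dishes. The groups did not overlap for Mavs and Trim30a and overlapped for Ifngr2, Ifna4 and Calr. All of these probe sets but that of Mavs were below the array median throughout. A bright Ifngr2 probe set on U74Bv2 had overlapping groups and a difference of -0.21 (SE 0.29). The second Ifna4 probe set was at -0.15 (SE 0.39), where the one above was at 0.74 (SE 0.34). Among the marker lists the smallest p belonged to Mmp2 for fibroblasts, Lyz2 for white blood cells and Tdgf1 for ES cells, none past the threshold. Mmp2 read 6.3, 6.56 and 11.4 in the STAT3-MER dishes, against 16, 17.8 and 16.3 in the WT dishes. Lyz2 read 65.6, 54 and 54.4 in the STAT3-MER dishes, against 30.7, 26 and 36.7 in the WT dishes. These Mmp2 and Lyz2 signals were all below the array median. A brighter Mmp2 probe set had overlapping groups and a difference of -0.13 (SE 0.35). The second Lyz2 probe set went the other way, at -0.37 (SE 0.28), where the one above was at 0.51 (SE 0.21). Tdgf1 read 1405, 1263 and 802 in the STAT3-MER dishes, against 538, 1047 and 897 in the WT dishes.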

How the data were processed

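RNA of 3 STAT3-MER and 3 WT dishes was measured on the Affymetrix chips U74Av2, U74Bv2 and U74Cv2. The authors deposited linear signal intensity values, 1 per probe set and array, made with MAS5 per the submitters' processing notes, which give no version. The dCHIP values that the study compared were not used here. No column of fold changes or p-values was used, and every column belonged to a sample. Groups came from the labels. An array whose labels name 2 chips was taken as U74Cv2, whose probe sets it holds. Gene names come from the chip annotation, updated through RefSeq, where 29131 probe sets have 1 gene, 724 several and 6846 none. Promoters are those of RefSeq for GRCm38.p6.

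Arrays were scaled within a chip to a common trimmed mean, without the top and bottom 2% of signals. For each chip, limma 3.58.1 under R 4.3.3 fitted log2(signal + 32) to the group, moderated with a trend on the mean level, and two-sided p-values were adjusted by Benjamini-Hochberg over 36701 probe sets. The 198 control probe sets were left out of the fit. The fit was tested on simulated arrays. Tables were handled in pandas 2.3.3 and numpy 2.4.6, correlations were tested by exact permutation in scipy 1.17.1, and matplotlib 3.10.9 drew the figures. A planned pair, Isg15 and Bst2, was not on 1 chip.

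The members, the lists and the tests were chosen with earlier results of these data known. All dishes are given for the brightest probe set of each MHC class I and peptide loading gene, the 12 member probe sets with the smallest p, members whose groups do not overlap, the brightest probe set of other members with a mean signal over 1000, and the gene with the smallest p of each pathway and marker list. Other genes with all dishes given were added after their values were seen. The methods do not give the form of their t-test, and unequal variances were allowed. The dishes were grown separately, and p-values measure the spread between them.

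Same-numbered dishes of the 2 groups deviated together on U74Bv2 (correlations of deviations from the group means 0.18, 0.21 and 0.13), but not on U74Av2 (-0.30, -0.34 and 0.29) or, by a limit of 0.1, on all pairs of U74Cv2 (0.11, 0.13 and 0.07), so the fit has no block. On U74Av2 STAT3-MER replicate 1 deviated with WT replicate 2 (0.41) and STAT3-MER replicate 2 with WT replicate 1 (0.46), pairs that no label gives and that were not used as a block. The alternatives were quantile, median and no scaling, other pseudocounts, a filter on dim probe sets, no trend, adjustment within chips, replicate blocks, each dish left out, other forms of the methods' t-test, and subsets of probe sets.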

Additional observations from a re-analysis of the deposited data

How the results depend on the processing

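No member passed the limma threshold under any alternative, including both fits with the replicate number as a block, and the median log2 difference over members stayed between -0.13 and 0.18. The block left that median at -0.02, and at -0.13 with only numbers 1 and 3 paired on U74Av2. On U74Bv2 and U74Cv2, but not on U74Av2, every sample correlated best with its own number. The number of members lower with groups that do not overlap was 4, and it was 1 under quantile scaling, 2 under median scaling, 0 among probe sets with a mean signal over 100 and 1 for the brightest probe set of each gene. Its counterpart for higher members was 1, and 0 on U74Av2 alone. Fewer dishes leave more probe sets without overlap. Without both dishes numbered 3, 4 members were higher (5.88%, against 13.3% of all probe sets) and 9 lower (13.2%, against 15.5%). On U74Av2 without STAT3-MER replicate 1 and WT replicate 2, 7 were higher (13.2%, against 17.0%) and 5 lower (9.43%, against 11.6%). With 1 dish left out at a time, between 1 and 7 were higher, where 8.04% to 10.4% of all probe sets were, and between 4 and 9 lower, where 7.32% to 9.91% of all were. There were 7 higher without STAT3-MER replicate 1 (10.3%, against 9.16%) and 9 lower without STAT3-MER replicate 2 (13.2%, against 8.41%) or 3 (13.2%, against 7.49%). Among probe sets with a mean signal over 100, 10 of 28 members had both dishes numbered 3 on top (35.7%, against 7.21% of all such probe sets), and 10 had STAT3-MER replicate 1 and WT replicate 2 at the bottom (35.7%, against 12.9%). For probe sets without a suffix the second count was 11 of 36 (30.6%, against 11.3%). These alternatives with 4 dishes and for the combinations of dishes were chosen after seeing the data.

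Single log2 differences, none of which passed the threshold, changed sign with 1 dish left out. The range was -0.85 to 0.62 for B2m, -0.39 to 0.50 for H2-K1, -0.14 to 0.71 for H2-D1 (bright probe set), -0.54 to 0.19 for Tap1 on U74Av2, -0.95 to 0.20 for Tap2 on U74Cv2, -0.18 to 0.077 for Tapbp, -0.79 to 0.088 for Ly6e (bright probe set), -0.54 to 0.70 for Irf7 on U74Cv2, -0.44 to 0.13 for Bst2 and -0.29 to 0.026 for Trim25. Median scaling turned Irf7 on U74Cv2 to -0.051. Pairing only numbers 1 and 3 as a replicate block turned H2-D1 to -0.33 and the dim probe set of Iigp1 to 0.017. Correlations that turned negative without the 2 dishes farthest from the median were those of B2m with H2-D1 (-0.13) and Tapbp (-0.33), and of Gbp2 with Gbp3 (-0.67), Igtp (-0.38), Irgm1 (-0.42) and Irf1 (-0.41). Under quantile scaling B2m with Tap2 had -0.083 and Isg15 with Irf7 -0.033, the latter on the Irf7 probe set with WT replicate 1 highest. The cause of these changes was not tested. Signals below the array median, which include all those of Ifit1, Ifit2, Ifi47 and Igtp, are the least certain.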
